A study of Mus musculus with 4 samples.

Results

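The AP-1 subunit genes described here are 10 listed genes out of 21887 protein-coding genes, and they were chosen by name: Jun, Junb, Jund, Fos, Fosb, Fosl1, Fosl2, Batf, Batf3 and Atf3. Their open chromatin was read from 4 peak lists of ATAC-seq, in which the enzyme Tn5 cuts and tags accessible DNA, made from macrophages grown from C57BL/6 mouse bone marrow for 5 days with 10% M-CSF, the growth factor of the macrophage lineage, at 50000 cells a library. The cells carried a wild-type Slc6a8 (WT) or were Slc6a8-/y (KO), null for the single copy that males carry of this creatine transporter gene, and were left untreated or given 10 ng/mL of IL-4, a cytokine that drives alternative activation, for 6 h. Each of the 4 groups was 1 library. No value can therefore be set against replicate error, no test was made, and every comparison is between these libraries. The labels do not say how many animals gave the marrow. The question of the study was what a lack of creatine does to chromatin accessibility while macrophages polarize.

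AP-1 is a dimer of basic leucine zipper proteins. Jun proteins pair with each other or with a Fos or ATF-type partner, while Fos proteins bind DNA only with a partner, usually a Jun. The dimers bind the TRE (the phorbol ester response element), and with ATF partners also the CRE (the cyclic AMP response element), and several of the genes are immediate early genes, transcribed within minutes of a signal without new protein. In macrophages AP-1 binds many enhancers beside the lineage factor PU.1.

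A peak is a stretch that the authors' caller marked as open, with a score of its own. The scores are the authors' values, and each is also given here as a percentile of its own list. They rank peaks within a list, and scores or percentiles from lists of different lengths show no change between libraries. WT untreated had 17339 peaks, KO untreated 13714, KO IL-4 10443 and WT IL-4 9930. Read depth is unknown. A peak that is missing may be a site below the caller's threshold, and fewer cells with the site open cannot be told apart from less opening per cell. No library had a peak within 10 kb of Slc6a8, so the lists hold no check of the genotype. Of 12 macrophage marker genes, 10 had a peak within 1 kb of the start in at least 1 library (WT untreated 8, WT IL-4 3, KO untreated 6, KO IL-4 4), and Csf1r and Ctss had none. In all 4 libraries 1 of the 12 had one, for which no share over all genes is given. The shares per library over all protein-coding genes were 39.3%, 28.9%, 35.8% and 29.8% in the same order. The IL-4 counts do not stand above these clearly. The loci of the 12 held 22, 11, 14 and 11 peaks in that order. For markers of other cells with such a peak the counts were 1 of 6 for neutrophils (WT untreated), 1 of 5 for B cells (WT untreated), 1 of 4 for dendritic cells (KO untreated), and 0 of 5 each for T cells and fibroblasts. The loci of the dendritic cell markers held 7, 3, 8 and 5 peaks, and those of the T cell markers 3, 2, 4 and 2. Their part in the results below was not tested.

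The promoters that follow are the 5 that a peak touched in at least 1 library, and that of Batf, each running from 250 bases before to 50 bases after the listed start (RefSeq, GRCm38.p6, written 5′ to 3′ on the gene's strand). Those of Jun and Atf3 lay inside a peak in all 4 libraries, that of Fos in all but KO untreated, that of Fosb in WT untreated alone and that of Junb, in part, in KO untreated alone. No library had a peak on those of Batf, Fosl2, Jund and Batf3, and that of Batf is shown because it carries the same core as that of Fos. Peaks touched 35.5%, 26.4%, 32.7% and 27.1% of all listed promoters in WT untreated, WT IL-4, KO untreated and KO IL-4. Capitals mark a match on either strand to the TRE (TGACTCA), the CRE-type octamer (TGACNTCA) or the CRE core (TGACGT), and the last 2 overlap where N is G.
Jun (chr4:95052173-95052472, minus strand): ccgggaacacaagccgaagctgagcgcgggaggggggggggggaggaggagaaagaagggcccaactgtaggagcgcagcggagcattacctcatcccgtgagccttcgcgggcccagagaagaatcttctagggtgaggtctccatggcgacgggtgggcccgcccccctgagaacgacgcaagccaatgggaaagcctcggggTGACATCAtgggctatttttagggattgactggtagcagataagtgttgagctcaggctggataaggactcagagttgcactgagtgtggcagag
Atf3 (chr1:191183284-191183583, minus strand): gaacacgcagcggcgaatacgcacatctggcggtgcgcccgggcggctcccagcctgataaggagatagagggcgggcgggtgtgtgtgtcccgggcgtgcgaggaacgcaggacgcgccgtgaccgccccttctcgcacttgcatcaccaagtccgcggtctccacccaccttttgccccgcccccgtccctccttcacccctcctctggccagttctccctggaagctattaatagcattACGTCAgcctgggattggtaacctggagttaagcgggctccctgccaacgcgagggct
Fos (chr12:85473640-85473939, plus strand): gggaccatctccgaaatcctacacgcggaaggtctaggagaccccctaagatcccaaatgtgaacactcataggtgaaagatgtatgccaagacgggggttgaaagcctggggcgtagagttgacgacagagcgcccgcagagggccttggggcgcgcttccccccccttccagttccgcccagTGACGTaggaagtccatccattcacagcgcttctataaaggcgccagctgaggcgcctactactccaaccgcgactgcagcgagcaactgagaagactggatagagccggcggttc
Fosb (chr7:19309996-19310295, minus strand): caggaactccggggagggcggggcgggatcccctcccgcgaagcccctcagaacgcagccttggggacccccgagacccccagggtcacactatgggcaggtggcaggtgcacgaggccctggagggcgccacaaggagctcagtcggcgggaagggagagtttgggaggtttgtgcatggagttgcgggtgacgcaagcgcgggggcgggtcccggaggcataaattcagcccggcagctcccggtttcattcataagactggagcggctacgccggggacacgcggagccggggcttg
Junb (chr8:84978699-84978998, minus strand): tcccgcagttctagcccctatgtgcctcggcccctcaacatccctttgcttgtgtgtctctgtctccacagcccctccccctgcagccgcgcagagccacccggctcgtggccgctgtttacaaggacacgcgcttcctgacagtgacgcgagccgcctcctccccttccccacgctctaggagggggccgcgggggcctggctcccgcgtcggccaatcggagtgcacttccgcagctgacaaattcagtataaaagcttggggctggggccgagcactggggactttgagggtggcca
Batf (chr12:85686470-85686769, plus strand): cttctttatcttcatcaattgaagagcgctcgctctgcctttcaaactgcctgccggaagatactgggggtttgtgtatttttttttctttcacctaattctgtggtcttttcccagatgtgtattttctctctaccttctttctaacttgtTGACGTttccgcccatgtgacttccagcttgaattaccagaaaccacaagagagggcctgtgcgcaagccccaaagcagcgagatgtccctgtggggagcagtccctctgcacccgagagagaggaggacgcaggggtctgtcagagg

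Starts are listed for 9 of the 10 genes. In these 9 windows the CRE core was found at Fos, Batf and Atf3, and it stands in 8.49% of the 21263 promoters of protein-coding genes. The octamer was found at Jun (TGACATCA, beginning 45 bases before the start), as in 8.75% of all promoters. No window held the TRE, which 4.66% of promoters hold, nor the STAT6-type pair of TTC and GAA 4 bases apart (6.35%) nor a CArG box (1.52%), the letters that serum response factor binds. The TATA box (TATAAA, 12.6% of promoters) was found at Fos and Junb. The GC box (GGGCGG, 46.2%) was found at 7 of the 9, all but Junb and Jund, and the CCAAT box (CCAAT, 38.2%) at Jun, Junb and Atf3. GC content ran from 46.7% at Jund to 75.7% at Batf3, around a median of 56.3% over all promoters, and the number of CpG pairs from 3 at Jund to 34 at Batf3, around 13.

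Within 10 kb of the 10 gene spans the 4 lists merged into 20 regions. Of these, 8 (40.0%, exact 95% interval 19.1 to 63.9) had a peak in all 4 libraries, against 35.6% of the 16642 regions within 10 kb of any protein-coding gene. WT untreated held 18 of these peaks, WT IL-4 12, KO untreated 14 and KO IL-4 10. All 10 genes had a peak in WT untreated and 8 in each of the others, whose lists are shorter. The gene without one in WT IL-4 was Fosl2, in the KO libraries Batf3, and in all 3 of these Fosl1. The share of all protein-coding genes with a peak within 10 kb is not given here, so these gene counts have no background. Regions in all 4 libraries had a median peak score of 131 (51.7 to 386), those in exactly 3 had 84.2 (50.4 to 135), those in 2 had 53.1 (50.8 to 60.9) and those in 1 had 68.0 (51.5 to 89.9). The median percentile of the peaks was 59.6, 57.3, 46.6 and 56.4, beside 53.1, 52.2, 52.7 and 52.3 for all peaks within 10 kb of protein-coding genes. Their median width was 611, 743, 656 and 664 bp, beside 452, 598, 543 and 525 bp. The regions that every library shared included the highest scores, and each region of 1 or 2 libraries stayed below 90. No such scores over all regions are given here. A site with a higher score passes the caller's threshold more readily in each list, so this order is not read as particular to these genes.

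**Figure D1:**
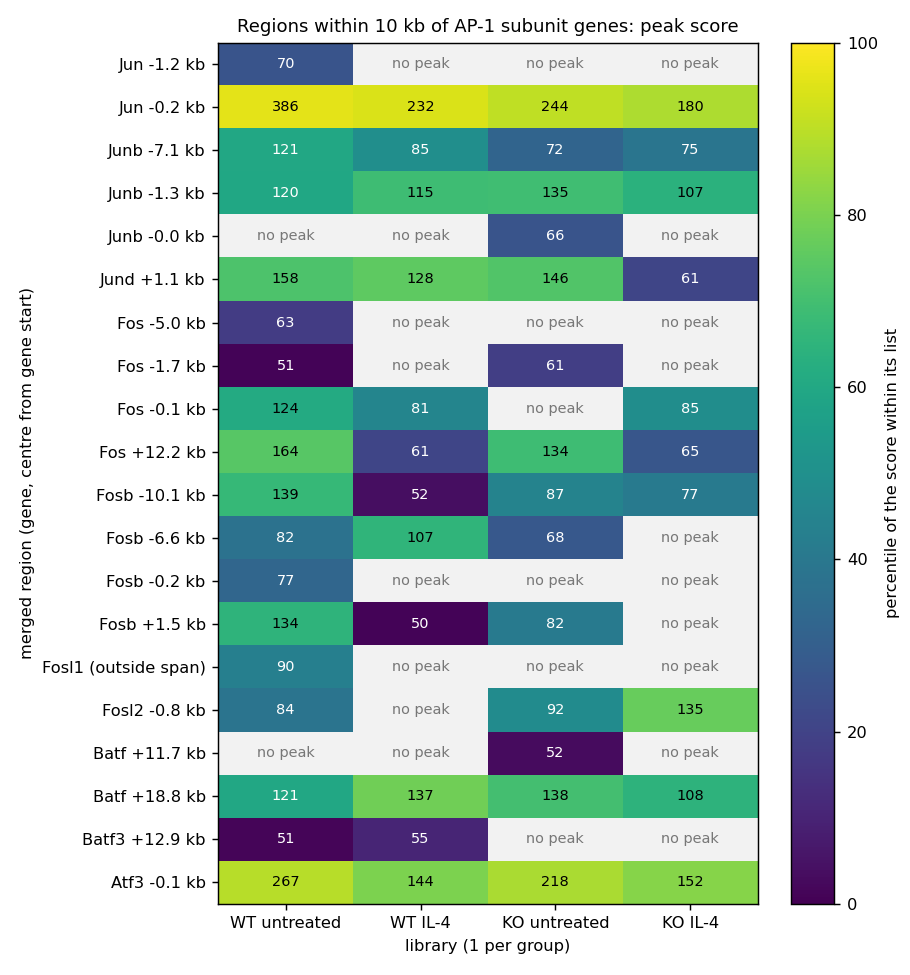
The 20 regions within 10 kb of the AP-1 subunit genes (rows, named by gene and distance of the centre from the gene start in kb) in the 4 libraries (columns); the number is the peak's score and the colour its percentile within its own list, and grey cells have no peak. The start regions of Jun and Atf3 have the highest scores in all 4 columns, and the Fos start region lacks a peak in KO untreated.

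A start peak is here one that reaches within 1 kb of a listed start, or of either end of the span where none is listed, as for Fosl1. In WT untreated 7 of the 10 genes had one, against 39.3% of all protein-coding genes. In WT IL-4 there were 5 (28.9% of all genes), while KO untreated had 5 (35.8%) and KO IL-4 had 6 (29.8%). Jun, Junb, Jund and Atf3 had a start peak in every library. Fos had one in all but KO untreated, Fosl2 in all but WT IL-4 and Fosb in WT untreated alone. Fosl1, Batf and Batf3 had none. With lists of equal length, WT untreated lost the start peak of Fosl2, and the other libraries kept theirs (30.1%, 28.9%, 30.7% and 29.0% of all genes). With scores of 100 or more, Fos had a start peak in WT untreated alone, Fosl2 in KO IL-4 alone, and Jund had none in KO IL-4 (28.0%, 15.4%, 23.4% and 16.2% of all genes). Within 2.5 kb of the start, Fos had a peak in KO untreated too, and Fosb in WT IL-4 and KO untreated too (41.5%, 30.4%, 37.7% and 31.3% of all genes). Fosl1 then counted in WT untreated, by a peak within 2.5 kb of an end of its span whose nearest gene is Ccdc85b.

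**Figure D2:**
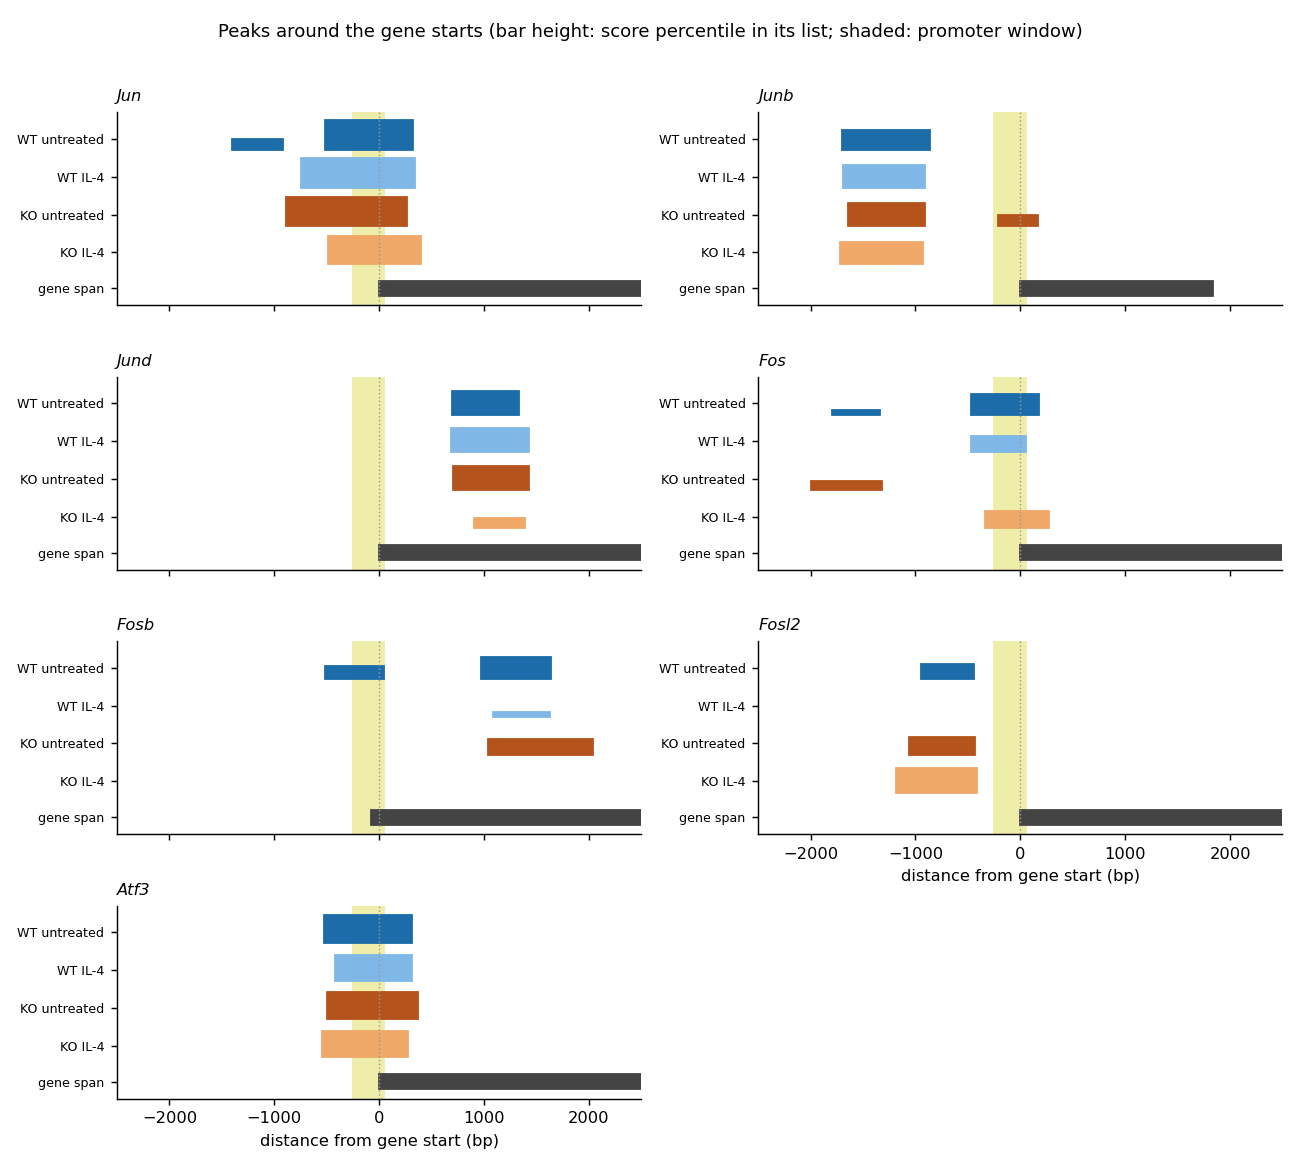
Peaks around the starts of the 7 AP-1 subunit genes with a start peak; the horizontal axis is the distance from the listed start in bp, each coloured bar is a peak of 1 library with a height that follows its score percentile, the shaded band is the promoter window and the dark bar the gene span. The Jun and Atf3 peaks cover the window in all 4 libraries, while the shared peaks of Junb and Jund lie beside it.

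The Jun gene itself (chromosome 4, 95049036 to 95052222, minus strand), whose protein c-Jun is the partner most AP-1 dimers share, had the highest-scoring peak within 10 kb of the family in every library. The region over its start (95051822 to 95053112) scored 386 (WT untreated), 232 (WT IL-4), 244 (KO untreated) and 180 (KO IL-4). Within their lists these stood at percentiles 95.9, 94.5, 90.6 and 87.6. The 4 peaks overlapped in a common stretch of 753 bp that held the whole promoter printed above. They differed most on the upstream side. Counted from the start, the WT untreated peak reached to -516 bp, that of WT IL-4 to -749 bp, that of KO untreated to -890 bp and that of KO IL-4 to -485 bp. WT untreated had a further peak at -1406 to -917 bp with a score of 69.7. It lay just 26 bp beyond the edge of the wider KO untreated peak, so this second peak counted as missing from KO untreated although the 2 almost touched.

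Junb and Jund encode the other Jun proteins. At Junb (chromosome 8, 84976909 to 84978748, minus strand) the region shared by all 4 libraries was centred 1294 bp before the start, with scores of 120, 115, 135 and 107 in WT untreated, WT IL-4, KO untreated and KO IL-4. The next region, centred 7.05 kb before the start, scored 121, 84.6, 72.4 and 74.7, and its nearest gene was Hook2. Neither reached the promoter window of Junb. The peak on that window itself was found in KO untreated alone, from -211 to 172 bp, with a score of 66.4 at percentile 25.8. Jund (chromosome 8, 70697739 to 70700616, plus strand) had its 1 region inside the gene span, centred 1057 bp after the listed start, with scores of 158, 128, 146 and 61.1. Its percentile was between 72.2 and 75.3 in 3 libraries and 20.9 in KO IL-4, where the peak was also the narrowest, 493 bp against 638 to 747 bp.

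Fos (chromosome 12, 85473890 to 85477274, plus strand) encodes c-Fos, the classical immediate early partner of c-Jun. The peak over its start scored 124 in WT untreated (percentile 61.0), 80.6 in WT IL-4 (45.7) and 84.7 in KO IL-4 (48.9). No peak of KO untreated overlapped it. The nearest KO untreated peak ended at -1315 bp (score 60.9), in a small region that WT untreated also had (50.8) and that neither IL-4 library had. A region 12.2 kb after the start was found in all 4 libraries, with scores of 164, 60.6, 134 and 65.1. In WT untreated it outscored the peak at the start, in both IL-4 lists it scored lower than that peak, and KO untreated had no start peak to set it against. A peak at -5219 to -4850 bp (62.8) stood in WT untreated alone. The region with the highest scores at Fos lay outside the 10 kb, 18.5 kb before the start (85454945 to 85455813): 439, 156, 334 and 210, at percentiles 97.4, 83.7, 96.2 and 91.7. It was the single region from 10 to 50 kb away that reached percentile 90 in any list.

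Fosb encodes a Fos protein that is likewise induced within minutes by signals. Its locus (chromosome 7, 19302696 to 19310118, minus strand) held 4 WT untreated peaks, 3 of WT IL-4, 3 of KO untreated and 1 of KO IL-4. The promoter printed above lay in a peak in WT untreated alone (score 76.7). The region inside the span, centred 1510 bp after the listed start, scored 134, 50.4 and 81.7 in WT untreated, WT IL-4 and KO untreated, and had no peak in KO IL-4. Its WT untreated peak also came within 1 kb of the start. The region 6.56 kb before the start scored 82.2, 107 and 67.8 and likewise had no peak in KO IL-4. The region 10.1 kb before the start was the single one that all 4 libraries had, with scores of 139, 51.7, 86.9 and 76.7. KO IL-4 had the fewest regions at Fosb, and the WT IL-4 scores of 50.4 and 51.7 lay close to the lowest of that list, 50.0.

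Fosl2 and Fosl1 encode Fra-2 and Fra-1, Fos relatives without the strong activation domain of c-Fos. Fosl2 (chromosome 5, 32136472 to 32157840, plus strand) had 1 region, centred 798 bp before its start. Its scores were 83.7 (WT untreated), 91.9 (KO untreated) and 135 (KO IL-4) (percentiles 38.5, 48.4 and 76.7), and WT IL-4 had no peak there. It was the only one of the 20 regions with a peak in KO IL-4 and none in WT IL-4. The highest percentile at a gene's locus, counted as 0 without a peak, ranged over 76.7 points at Fosl2, the widest of the 10. That range rests on the 0 of WT IL-4. Among the genes with a locus peak in every library the widest range was that of Jund, 54.3 points. The narrowest was that of Jun, 8.34 points. The genes most like Fosl2 in these 4 percentiles were Stx17, Tox and 2810459M11Rik, with mean absolute differences of 2.58, 4.34 and 4.78 points over the 4 libraries. Fosl1 (chromosome 19, 5447698 to 5455938) had no peak on its span. Its 1 locus peak, in WT untreated with a score of 89.9, lay outside the span, and the nearest gene was Ccdc85b.

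Batf, Batf3 and Atf3 encode partners of the Jun proteins. BATF and BATF3 lack an activation domain and pair with Jun at sites shared with IRF4 or IRF8, and BATF3 is known for its need in a class of dendritic cells. Batf (chromosome 12, 85686720 to 85709087, plus strand) had a region deep inside its span, 18.8 kb after the start, in all 4 libraries, with scores of 121, 137, 138 and 108. Its start had no peak, and its promoter holds a CRE core as those of Fos and Atf3 do. A second peak inside the span stood in KO untreated alone (51.5). Batf3 (chromosome 1, 191098414 to 191108943, plus strand) had 1 weak region, 12.9 kb after the start and beyond the end of the span, with scores of 51.2 in WT untreated and 55.0 in WT IL-4. Neither KO library had a peak there. Atf3 encodes a stress-induced factor that can restrain inflammatory genes. The region over its start (chromosome 1, 191182959 to 191183873) scored 267, 144, 218 and 152, at percentiles 89.3, 80.4, 87.4 and 81.7, and was the second strongest start region after that of Jun. Its 4 peaks shared 699 bp, which held the whole promoter window.

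With IL-4 in WT cells, 0 of the 12 WT IL-4 peaks at these genes were gained (exact 95% interval 0 to 26.5), and 6 of the 18 WT untreated peaks were lost (33.3%, interval 13.3 to 59.0). A gained peak has no overlap in the other library, and a lost one is the reverse. Among all peaks within 10 kb of protein-coding genes 9.06% were gained and 45.1% lost. The lost peaks were 2 upstream of Fos, those on the Fosb promoter and before the Fosl2 start, the second peak of Jun and the one near Fosl1, with scores of 50.8 to 89.9. The peaks over the starts of Jun, Fos and Atf3 and the shared start peaks of Junb and Jund were not among them, though the second peak of Jun also came within 1 kb of its start. With scores of 100 or more 5 of 10 were lost and 1 of 6 gained, beside 56.0% and 3.85% over all genes. None of the 6 was among these 5, and the start peak of Fos was then one of the lost. Each of these 5, and the 1 gained, lay over a peak of the other list that scored below 100. With lists of equal length, which leave out the lowest WT untreated scores, 1 of 11 was lost, near Fosl1, and 2 of 12 were gained, at Fosb (107) and Batf3 (55.0), both over WT untreated peaks that the shorter list leaves out. Over all genes the balance moved as well, to 24.1% lost and 23.5% gained.

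In KO cells, 1 of the 10 KO IL-4 peaks was gained with IL-4, the start peak of Fos (10.0%, interval 0.253 to 44.5), and 5 of 14 KO untreated peaks were lost (35.7%, interval 12.8 to 64.9). Over all genes 15.6% were gained and 35.6% lost, so the shares of the AP-1 subunit genes were near the background. Lost were the peak 1.66 kb before Fos, the regions inside Fosb and 6.56 kb before it, the peak on the Junb promoter and the weaker Batf peak, with scores of 51.5 to 81.7. The WT and KO cells shared 1 loss, the region 1.66 kb before Fos. Whether the response differed between genotypes was not tested. With lists of equal length 2 of 11 were lost, both at Fosb, and the gain at Fos stood (25.2% lost and 23.9% gained over all genes). With scores of 100 or more the gain, 1 of 5, was at Fosl2 instead, and 2 of 6 were lost, beyond Fos and inside Jund (10.2% gained and 40.9% lost over all genes). Each lay over a peak of the other list that scored below 100 (91.9 at Fosl2, 65.1 beyond Fos and 61.1 inside Jund).

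Between untreated libraries, KO had 2 of 14 peaks that WT lacked, on the Junb promoter and inside Batf (14.3%, interval 1.78 to 42.8), and lacked 6 of the 18 WT peaks (33.3%, interval 13.3 to 59.0). The background was 14.0% and 29.1%. The 6 lay at Fos (the start peak and the one 5.04 kb before it), on the Fosb promoter, near Fosl1, at the second Jun peak and beyond Batf3. The Fos start peak, with 124, was the highest of them, and the others scored 51.2 to 89.9. With lists of equal length 2 remained missing from KO, the Fos start peak and the one near Fosl1, and the 2 gained were instead at Fosl2 (91.9) and Fosb (67.8), over WT peaks that the shorter list leaves out (19.9% lost and 20.7% gained over all genes). With a score of 100 or more 4 of 10 were lost and 0 of 6 gained, beside 32.9% and 10.3% over all genes. Apart from the Fos start peak, those lost lay over KO untreated peaks that scored below 100. The Fos start was again found in WT untreated and not in KO untreated, but in neither IL-4 list. The comparison shares its libraries with those above, so the Fos start peak that KO untreated lacks gives both this loss and the gain with IL-4.

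After IL-4, KO had 1 of 10 peaks that WT lacked, at the start of Fosl2 (10.0%, interval 0.253 to 44.5), and lacked 3 of the 12 WT peaks (25.0%, interval 5.49 to 57.2), inside Fosb, 6.56 kb before it and beyond Batf3. Over all genes 27.4% were gained and 24.2% lost. The same 1 gain and 3 losses were found with lists of equal length, where 25.6% were gained and 25.7% lost over all genes. With scores of 100 or more 1 of 5 was gained, again at Fosl2, and 2 of 6 were lost, before Fosb and inside Jund, beside 29.0% and 23.6%. The one inside Jund lay over a KO IL-4 peak that scored 61.1. The Fosl2 peak scored 135. Of the 3 peaks lost with the full lists, the one before Fosb scored 107 and the others 50.4 and 55.0.

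**Figure D3:**
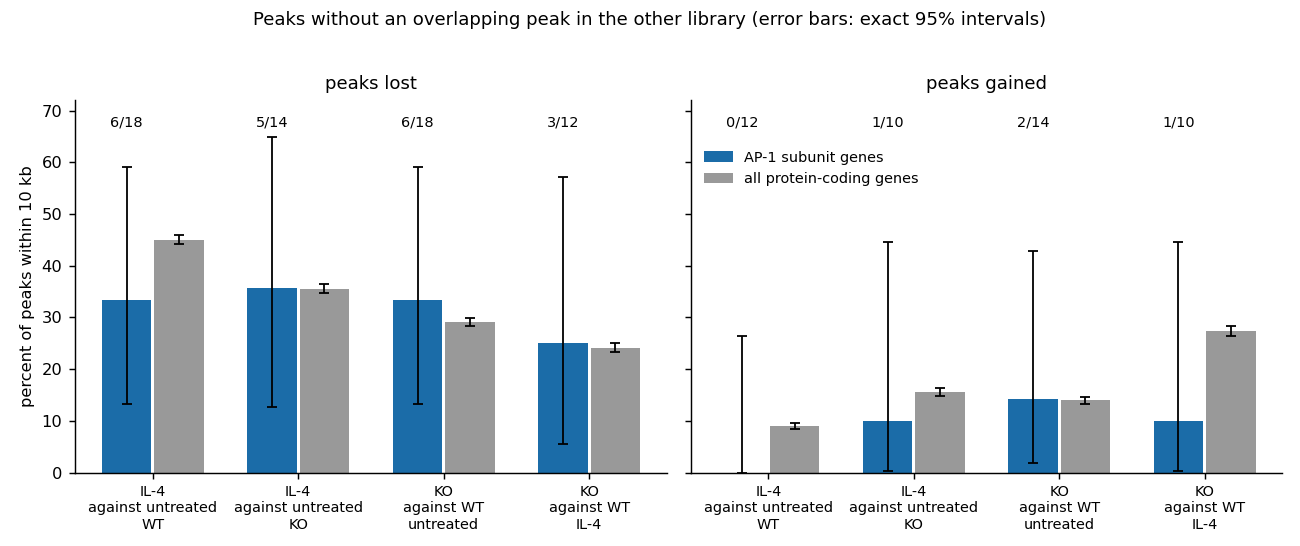
Percent of peaks within 10 kb that lack an overlapping peak in the other library, lost on the left and gained on the right, for the 4 comparisons; blue bars are the AP-1 subunit genes with their counts above, grey bars all protein-coding genes, and error bars exact 95% intervals that cover counting error alone. The interval of every blue bar holds the grey value beside it, and the intervals are wide, as each rests on 10 to 18 peaks.

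From 10 to 50 kb the lists added 33 regions, of which 9 were found in all 4 libraries, so 17 of 53 regions within 50 kb had a peak in all 4 (33.8% over all protein-coding genes). Beside the one before Fos, one lay 47.3 kb before Atf3, with scores of 223, 160, 156.5 and 111 in WT untreated, WT IL-4, KO untreated and KO IL-4. A weaker one stood 41.3 kb before Atf3 (75.5, 70.4, 109 and 83.3, the higher of 2 peaks in WT untreated). Atf3 itself was the nearest gene of both. At Fosl2 regions in all 4 lay 23.9 kb before the start (114, 52.5, 82.8 and 92.5) and 55.8 kb after it (95.4, 53.2, 64.8 and 54.3), with Fosl2 the nearest gene. The other 4 had a different nearest gene: Rnaseh2a near Junb (207, 88.7, 103 and 130), Lsm4 near Jund (228, 101, 191 and 148), Ercc1 near Fosb (109, 59.3, 104 and 103) and Nsl1 near Batf3 (75.8, 79.1, 87.3 and 71.3). At 2 of the 53 regions, near Fosl1 and Jun, the peak was found in WT untreated and KO IL-4 alone, so that IL-4 came with opposite differences in the genotypes. Such opposite patterns, in either direction, made up 3.97% of the 18866 regions within 50 kb of any protein-coding gene. A window of 50 kb at Batf3 and Atf3, which lie 61352 bp apart, takes in 3 of the same regions. Among the 53 each is counted once, but in the counts per gene they stand at both. Atf3 had the most regions within 50 kb, 8, followed by Junb, Fosb and Batf3 with 7 each, and Jun and Jund had the fewest, 3 each. The rank of Atf3 rests on the 3 regions common to both windows, whose nearest gene was Batf3 or Fam71a. Apart from its start region Jun had none that all 4 libraries shared.

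**Figure D4:**
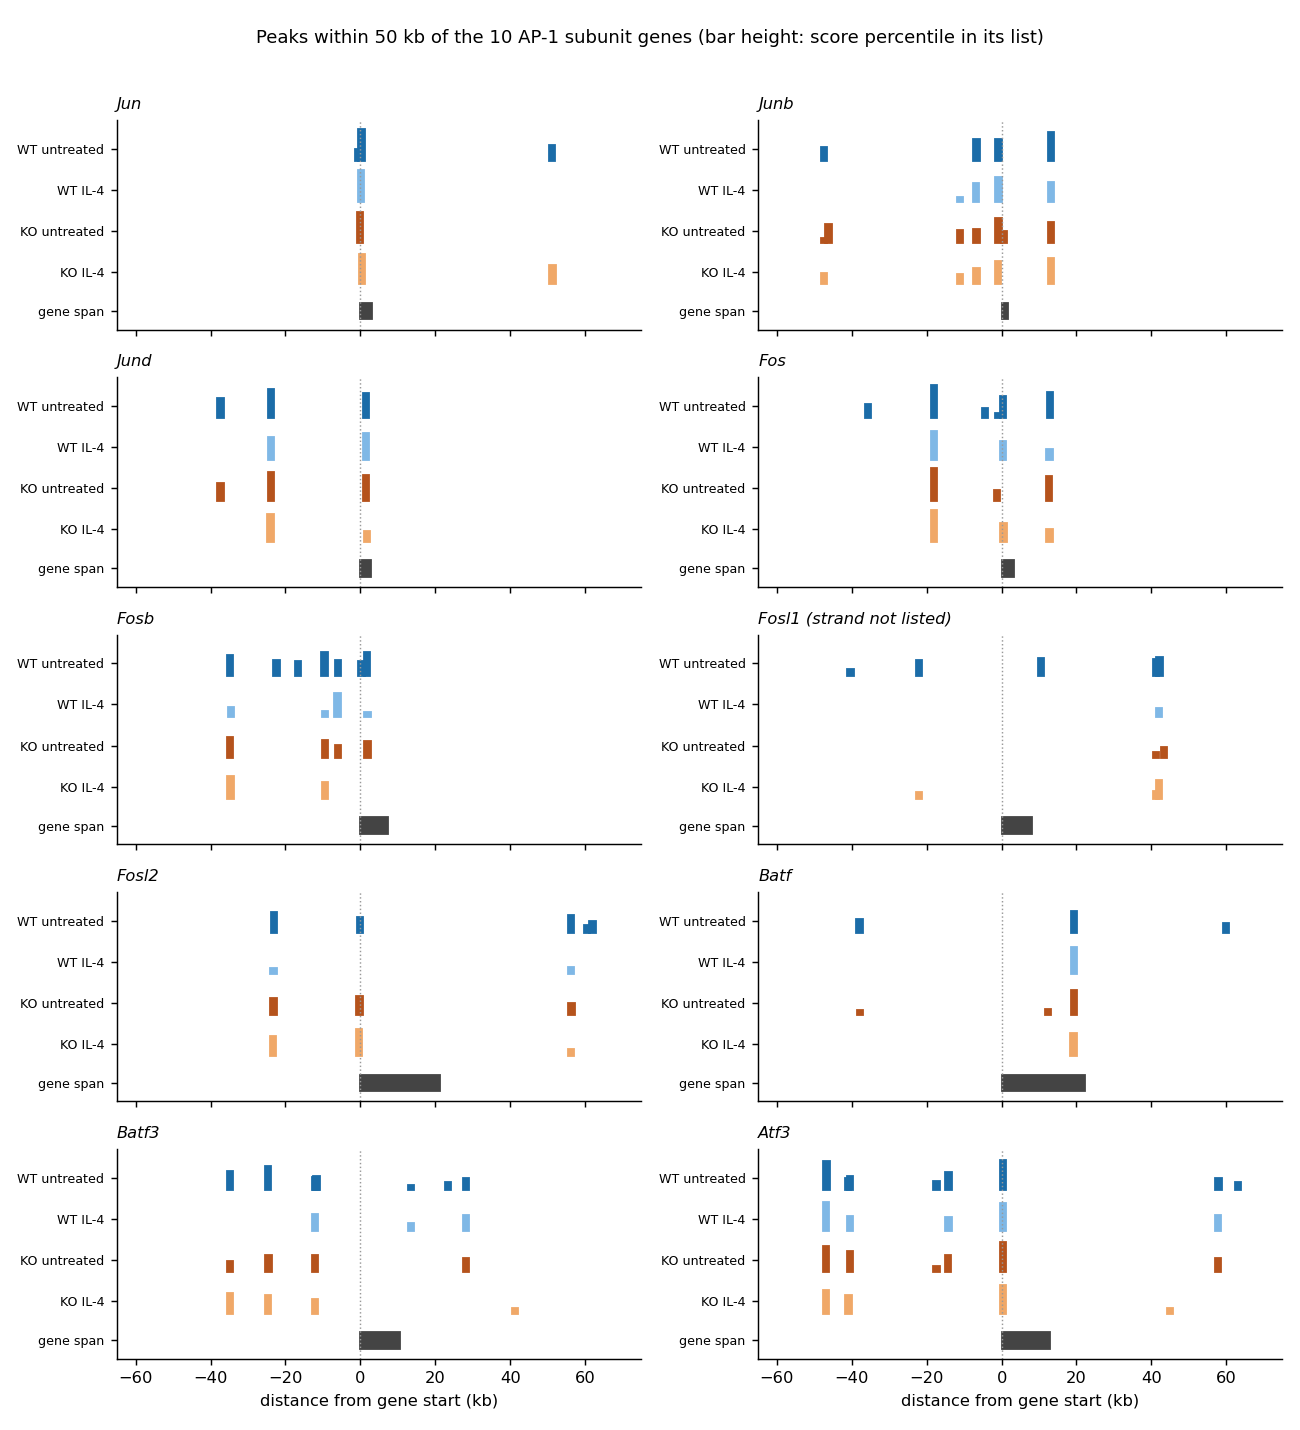
Peaks within 50 kb of each AP-1 subunit gene; the horizontal axis is the distance from the listed start in kb (for Fosl1, with no strand listed, from the lower end of its span), each coloured bar is a peak of 1 library, drawn at a minimum width so that it can be seen, with a height that follows its score percentile, and the dark bar is the gene span. The peaks that recur in all 4 rows include those over the starts of Jun and Atf3, beside those of Junb and Jund, inside Batf and 18.5 kb before Fos.

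Genes of the same pathway were counted in the same way, in 4 lists. Of 13 other bZIP genes of the AP-1, CNC and MAF families, 9, 8, 8 and 7 had a start peak in WT untreated, WT IL-4, KO untreated and KO IL-4, and Batf2, Jdp2, Maff and Bach2 had none. Of 25 kinases and factors upstream of AP-1, 22, 17, 20 and 19 had one. In all 4 libraries 15 of them did, a count with no share over all genes beside it. Immediate early genes and their feedback inhibitors gave 17, 13, 15 and 12 of 22. Macrophage genes known as AP-1 targets gave 7, 7, 7 and 6 of 20. Of all protein-coding genes 39.3%, 28.9%, 35.8% and 29.8% had one in these libraries. The upstream genes thus had start peaks most often by count. The targets had them least often of the 4 lists, near the share of all genes. No difference was tested. Of the WT untreated locus peaks of the 4 lists, IL-4 came with a loss of 53.3% (16 of 30), 40.4% (19 of 47), 47.7% (21 of 44) and 38.9% (7 of 18) in the order of the lists, beside the 45.1% of all genes. In KO cells the losses were 39.1%, 27.5%, 40.5% and 43.8%, beside 35.6%.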

How the data were processed

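Open chromatin was measured by ATAC-seq in 4 macrophage libraries, 1 per group. Per the submitters' processing notes the tools were HOMER, MACS 1.4.2 and Bowtie2 2.2.5 on build mm10, with parameters not given in those notes. The deposited files are 1 peak list per library with a score for each peak. The scores ran from 50.01 to 3100 in WT untreated, the pattern of MACS 1.4, but no header states what the score is. Positions are 1-based, mm10, and the gene spans and starts are those of RefSeq GRCm38.p6, which shares the coordinates. Starts were listed for all but 4395 genes, for which either end of the span was used. A locus was the span plus 10 kb on each side. Peaks of 2 lists were matched by an overlap of at least 1 bp. The 95% intervals are Clopper-Pearson (exact) and cover counting error alone. Read depth is unknown. Members and lists were chosen with earlier results of these data known, and the motifs after the promoters were seen. Text names every member and every peak within 10 kb, and farther regions found in all 4 libraries or at percentile 90 or more. Of each related list it names up to 4 genes with the highest peak of 1 treatment or 1 genotype alone, and it names the 3 genes most like the member whose percentiles range most. One gene that this rule picks is not reported here. Alternatives were a reciprocal overlap of 50%, a minimum score of 100, lists cut to their 9930 top scores, loci of 50 kb, the nearest gene alone, matches within 500 bp and starts of 2.5 kb. Overlaps and gains were tested on simulated data with known answers. Software was SciPy 1.17.1, pandas 2.3.3, NumPy 2.4.6 and, for figures, Matplotlib 3.10.9, under Python 3.11.15.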

Additional observations from a re-analysis of the deposited data

Results flagged for a closer look

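At 2 regions within 50 kb of an AP-1 subunit gene WT had a peak untreated and none with IL-4, whereas KO had none untreated and one with IL-4. Over all regions within 50 kb of protein-coding genes 749 of 18866, or 3.97%, were opposite in this way in either direction, beside 2 of 53 here, so the count is near the background. The difference was not tested, as each group is 1 library. Near Fosl1, with Drap1 and AI837181 as the nearest genes, the peak scored 84.5 in WT untreated and 53.85 in KO IL-4. Near Jun, with Mysm1 as the nearest gene, it scored 86.2 in WT untreated and 84.8 in KO IL-4. Both lay outside the 10 kb window.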

How the results depend on the processing

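Of 66 recomputed counts, 48 stayed within 1.5 times the reported one. A count that stayed can rest on other peaks. With lists of equal length, the 2 gained in KO against WT untreated shared 0 with the 2 reported. With a score of 100 or more, the 1 gained with IL-4 in KO was not the 1 reported. With loci of 50 kb, gained peaks numbered 1 (IL-4, WT), 5 (IL-4, KO), 5 (KO against WT, untreated) and 8 (KO against WT, IL-4), lost ones 24, 12, 18 and 5 in that order, and 17 regions were found in all 4 libraries. With a score of 100 or more, gains were 1 for IL-4 in WT and 0 for KO against WT untreated, 2 were lost with IL-4 in KO, and 4 regions were in all 4. The 5 peaks then lost with IL-4 in WT shared 0 with the 6 reported, which all scored below 100 and so could not be among them. With lists of equal length, 2 were gained and 1 lost with IL-4 in WT, 2 lost with IL-4 in KO and 2 lost in KO against WT untreated. Reciprocal overlap of 50% gave 2 gains in KO against WT with IL-4. In each case the cause was not tested, beyond what a wider locus, higher threshold or shorter list removes or adds by construction. No paired analysis was possible because each group holds 1 library. Unknown depth limits every statement that a peak is missing.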

Other observations

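Among the related genes, the regions with the highest scores found in 1 treatment or 1 genotype alone were mostly of the untreated libraries. The untreated lists were also the longer ones, with 17339 (WT) and 13714 (KO) peaks against 9930 and 10443 with IL-4. Over all genes too, a larger share of locus peaks was lost with IL-4 than gained. The shares were 45.1% against 9.06% in WT and 35.6% against 15.6% in KO. Of the upstream genes, Mef2d, a MADS-box factor, had a region in the untreated libraries alone with scores of 142 in WT and 94.65 in KO. Map2k6 (101 and 62.2), a kinase that activates p38, had one as well. Map2k1, which encodes MEK1, had one in the KO libraries alone (109 untreated and 55.0 with IL-4). Immediate early and feedback genes with an untreated region were Ier3 (119 in WT and 73.3 in KO), Nr4a1 (115 and 92.8), an orphan nuclear receptor, and Zfp36 (109 and 57.5), which encodes tristetraprolin. Ier2 had a region in the WT libraries alone (90.7 untreated and 76.9 with IL-4).

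Of the macrophage genes known as AP-1 targets, Tnf had a region in the WT libraries alone, 87.7 untreated and 121 with IL-4. Plau (87.5 in WT and 98.1 in KO), Cxcl2 (77.6 and 62.4) and Hmox1 (73.85 and 50.9) had one in the untreated libraries alone. Of the other bZIP genes, Bach2 (95.6 and 104), Nfe2l1 (52.6 and 94.3) and Jdp2 (74.3 and 50.2), a repressor that pairs with Jun and whose region also lies 38.6 kb before Batf, had an untreated region. Nfe2l2, which encodes the antioxidant factor NRF2, had one in the IL-4 libraries alone, 84.4 in WT and 62.7 in KO. Each of these is a value of 1 library per group, with no test.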
